A study of Mus musculus with 16 samples.

Results

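Cilia are built and kept by transport machinery that runs along the axoneme, and motile cilia carry further proteins that make the axoneme beat. The genes described here code for both. They were taken by name: every probe set whose symbol began with Ift, Bbs, Dnah, Dnai or Dnaaf and a number, with Dync2, or with Tekt and a number. This gave 45 genes of the 19505 on the array, each with 1 probe set. They fall into 24 transport genes (14 *Ift*, 8 *Bbs* and 2 *Dync2*) and 21 genes of the motile axoneme (10 *Dnah*, 7 *Dnaaf* and 4 *Tekt*). No symbol on the array matched Dnai. The genes *Dnaic1* and *Dnaic2*, older names of the dynein intermediate chain genes, were not taken by the rule and are given beside the members.

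Clariom S mouse arrays measured RNA of cells that were sorted by GFP out of olfactory mucosa. The mice were S100a5-tauGFP animals, whose GFP is tied to *S100a5*, an activity-dependent gene of olfactory sensory neurons. The 24 animals were aged 7 to 12 weeks, and both sexes were used. Each was kept singly for 40 h in clean air at 3.1 L/min, and after 26 h received pulses of 10 s every 20 min. For 4 pools of 3 mice the pulses held the ketone odorant 2-octanone, and for 4 pools filtered air (vehicle). Each pool was sorted into GFP+ and GFP- cells, which gives 4 groups of 4 arrays. All groups carry the reporter, every array is a pool of 3 animals, and the GFP- fraction holds all cells without GFP, neurons included. The 10 listed markers of mature sensory neurons, *Omp* among them, read high in both fractions, with an array mean of 17.05 to 17.22 in GFP+ and 16.44 to 17.05 in GFP- cells.

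Arrays of one group correlated at 0.982 to 0.995 across probe sets. The pools numbered 4 stood apart in both exposures: *S100a5* read 13.22 and 13.92 in their GFP+ cells, after vehicle and 2-octanone, against 16.47 to 16.98 in the other 6 pools. In GFP- cells *S100a5* read 13.11 and 13.55 in these pools and 15.45 to 15.81 in the others. It was higher in GFP+ cells in all 8 pools, by 0.83 (SE 0.60), and was not called (limma adjusted p = 0.304; 0.000487 with the pool as a replicate block). Counts and class medians of the members are therefore also given without these pools. The gene lists and *Dnaic1* and *Dnaic2* are given with all pools only. Values are the deposited signals, read as log2, so a difference of 1 is a 2-fold change, and SE is the standard error of the fit. A gene was called where limma's p, adjusted over all 19572 probe sets by Benjamini-Hochberg, was under 0.05. In sorted bulk RNA, fewer cells of a type and less RNA per cell cannot be told apart.

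Intraflagellar transport (IFT) trains carry building material along the axoneme. The IFT-B complex is moved towards the tip by kinesin-2, the IFT-A complex works in the return trip, and cytoplasmic dynein-2 drives that return. The BBSome, a complex of Bbs proteins, rides the trains and moves membrane proteins, and in olfactory neurons its loss depletes the cilia that hold the odorant receptors. Olfactory cilia in the mouse do not beat, and their axonemes are known to lack dynein arms. Beating cilia, as on the multiciliated cells of the respiratory lining next to the olfactory epithelium, need outer and inner dynein arms (*Dnah* genes), factors that assemble these arms in the cytoplasm (*Dnaaf* genes) and tektin filaments in the doublet wall (*Tekt* genes). RFX transcription factors bind the X-box, a paired motif, in promoters of many ciliary genes.

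Promoters are shown because RFX sites are a feature that the name rule did not use. RefSeq windows of 300 bases (250 before and 50 after the start, GRCm38.p6) were at hand for 40 of the 45 genes, 20 in each class, and for 15691 genes on the array. An X-box has 2 arms, and 13 spellings of it were searched on both strands. The one shown, GTNNCC and GGNAAC with 2 free bases between them, had the most members of all full-length spellings and was chosen after these counts were seen, so its share describes a chosen spelling. It stood in the windows of 9 of 40 members (22.5%) and of 1.68% of all genes with a window. Each such share counts a gene once where any of its windows matched. These were 5 of 20 transport genes (*Bbs1*, *Bbs4*, *Bbs7*, *Ift22* and *Ift57*) and 4 of 20 motile genes (*Dnaaf5*, *Dnaaf6*, *Dnaaf6b* and *Tekt4*). *Dnaaf6* and *Dnaaf6b* bear names of copies of one gene and have similar matches, yet count as 2 members in all promoter shares. Printed here are the 4 of them that were called higher in GFP+ cells, with *Bbs1* and *Ift57*, which were not called. Letters run 5′ to 3′ on the gene's strand, and capitals mark the match. The matches in *Bbs4*, *Bbs7*, *Ift22* and *Tekt4* read as spelled, and those in *Bbs1* and *Ift57* as the reverse complement, arms GTTNCC and GGNNAC.
Bbs4, chr9:59353464-59353493, minus strand: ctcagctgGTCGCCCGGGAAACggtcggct
Bbs7, chr3:36613474-36613533, minus strand: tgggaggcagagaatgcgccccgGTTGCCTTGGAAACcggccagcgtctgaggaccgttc
Ift22, chr5:136908094-136908149, plus strand: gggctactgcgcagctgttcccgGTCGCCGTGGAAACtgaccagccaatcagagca
Tekt4, chr17:25471407-25471466, plus strand: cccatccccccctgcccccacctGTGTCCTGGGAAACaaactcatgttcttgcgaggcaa
Bbs1, chr19:4906605-4906634, minus strand: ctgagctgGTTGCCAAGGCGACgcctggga
Ift57, chr16:49699184-49699243, plus strand: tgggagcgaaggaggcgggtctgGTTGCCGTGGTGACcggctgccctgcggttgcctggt

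Counted from the start site, the first base of the match lay at −121 in *Bbs7*, −33 in *Ift22*, −160 in *Tekt4* and −87 in *Ift57*. In *Bbs4* and *Bbs1* it lay just after the start, at 24 and 2. *Ift22* holds another match at −63.

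The other spellings overlap this one and each other. The arm GTTGCC alone stood in 19 of 40 members (47.5%) and 13.9% of all genes with a window. GTTNCC and GG, 2 bases apart, were in 10 members (25% against 7.69%), and GTTGCC and GG at that distance in 6 (15% against 2.83%). GTTGCC and AAC, 5 bases apart, were in 6 (15% against 0.778%). GTTNCC or GTTGCC with GGNAAC, 2 bases apart, were each in *Bbs7*, *Dnaaf6* and *Dnaaf6b* (7.5% against 0.554% and 0.376%). GTTNCC, then AT, 1 free base and GNAAC, was in *Dnaaf2* (2.5% against 0.261%). The remaining 5 spellings matched no member. They were AT between GTTNCC and GGNAAC (0.121% of all genes with a window), between GTTGCC and GG (0.586%), between GTTNCC and GG (1.1%) and between GTNNCC and GGNNAC (0.605%). The last was GTTGCT with GGNAAC, 2 bases apart (0.172%). The median GC content was 57.2% for transport, 54.7% for motile and 57% for all windows. A match is a string in the window and does not show binding. Of the 9 genes with the spelling shown, 4 were called higher in GFP+ cells (median difference 0.34), and of the 31 without it 15 were higher and 2 lower (median 0.35).

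Each probe set was set against the background probe sets of its array, which bears on its own detection only, since signals of different probe sets cannot be compared as RNA amounts. Background probe sets averaged 5.40 to 5.61 per array and reached 9.10 singly. On all 16 arrays, 22 of 24 transport genes read above the highest background probe set, all but *Bbs10* and *Bbs12*. Of the 21 motile genes 4 did so: *Dnaaf1*, *Dnah7a*, *Dnah11* and *Tekt1*. The group means of *Dnaaf3*, *Dnaaf6*, *Dnaaf6b*, *Dnah1*, *Dnah6* and *Dnah17* were under the mean background in all 4 groups, *Dnah10* was under it in 3 groups and *Bbs12* in 1. For the 6 genes under background everywhere no fold is given, and the text gives their signals.

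The comparison of GFP+ with GFP- cells of the same pools asks how reporter-positive neurons differ from the other sorted cells. Cilia genes of both classes were higher in GFP+ cells by small amounts. Over both exposures 23 of 45 genes were called higher and 2 lower, that is 51.1% higher against 16.7% of all probe sets, and 2 of 45 lower against 14%. In all, 30.7% of probe sets were called. Differences of the members ran from −0.64 to 0.65. Of the transport genes 14 were higher and none lower (median 0.33), and of the motile genes 9 were higher and 2 lower (median 0.34), beside a median of 0.13 over all probe sets. The difference was positive for 41 of 45 members (91.1%), for all 24 transport genes and for 17 of 21 motile genes (81%). It was positive for 68.4% of all probe sets. For 38 members it was over the median of all probe sets. Among all probe sets with a mean signal over the median, 20.8% were called higher.

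Both fractions came from the same mice. With the pool as a replicate block, 27 members were called (36% of all probe sets), 25 higher and 2 lower: *Bbs1*, *Ift46* and *Dnaaf4* joined (adjusted p = 0.0118, 0.0112 and 0.0238), and *Ift74* left (0.0588). Without both pools numbered 4, 15 were called, all higher (7 transport and 8 motile). Of 19572 probe sets 2777 were then higher, and 27.2% were called in either direction. The genes lost were *Bbs2*, *Bbs10*, *Dync2li1*, *Ift22*, *Ift74*, *Ift80*, *Ift81*, *Dnah8*, *Dnah9* and *Tekt2*, while the medians were 0.25 for transport and 0.31 for motile genes against 0.11 for all. Centring each array on its median raised every difference by 0.28, since array medians were 7.64 to 7.73 in GFP+ and 7.92 to 8.01 in GFP- cells. Then 41 of 45 members were called higher, as were 13089 of 19572 probe sets (77.4% were called in either direction). *Tekt2* and *Dnah8* were no longer called. Within exposures centring gave 41 calls after vehicle (57.7% of probe sets) and 35 after 2-octanone (48.7%). The number of members over the all-gene median was 38 either way.

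**Figure D1:**
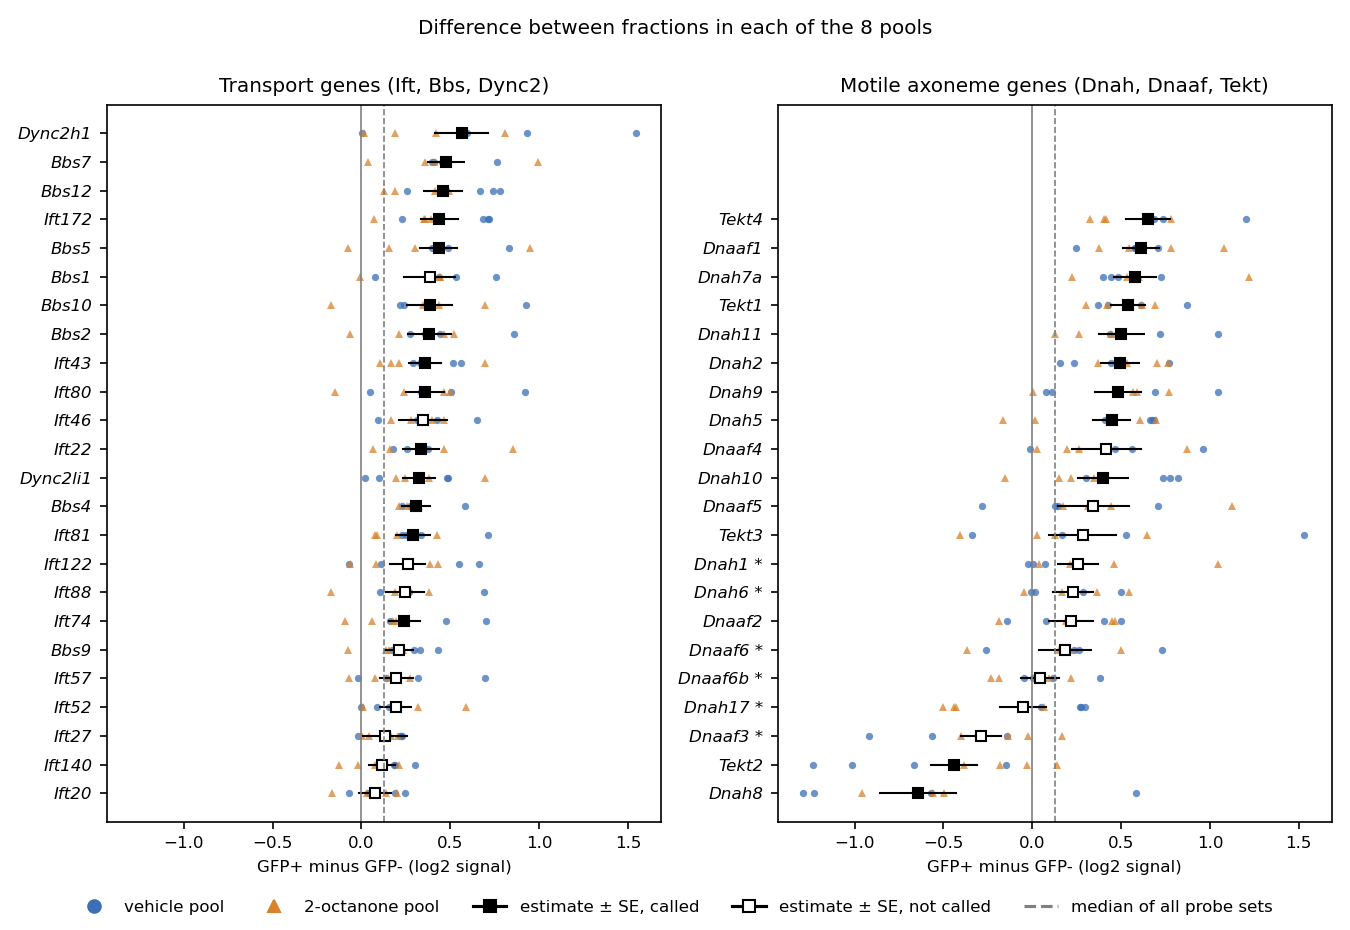
Difference between GFP+ and GFP- cells (log2 signal, x axis) for each of the 24 transport and 21 motile axoneme genes (y axis), with vehicle pools as circles, 2-octanone pools as triangles and the fitted estimate ± SE as a square, filled where called; an asterisk marks the 6 genes under background in all groups. Most squares lie between the dashed median of all probe sets, at 0.13, and 0.65. *Tekt2* and *Dnah8* (called) and *Dnaaf3* and *Dnah17* (not called) lie left of 0.

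Among the IFT genes 6 of 14 were called higher (median 0.25) and the other 8 were positive but not called. Of the 11 IFT-B genes with an Ift name 5 were called. The listed IFT-B genes under other names, *Traf3ip1*, *Cluap1*, *Hspb11*, *Ttc26* and *Ttc30b*, were all called higher, at 0.32 to 0.46. *Ift172*, the gene of the largest IFT-B protein, differed most among the *Ift* genes. In vehicle pools 1 to 4 *Ift172* read 12.64, 12.73, 12.55 and 13.03 in GFP+ and 11.95, 12.02, 12.32 and 12.32 in GFP- cells. In the pools given 2-octanone it read 12.59, 12.75, 12.47 and 12.87 in GFP+ and 12.52, 12.39, 12.12 and 12.47 in GFP- cells. GFP+ lay above GFP- in each of the 8 pools, by 0.07 to 0.72, with a difference of 0.44 (SE 0.10, adjusted p = 0.00384). The vehicle fractions did not overlap, and those of 2-octanone did. *Ift80*, an IFT-B component of the peripheral part, differed by 0.36 (SE 0.11, adjusted p = 0.0163). *Ift22*, a small GTPase-like IFT-B protein, differed by 0.34 (SE 0.10, adjusted p = 0.0199) and was higher in all 8 pools. The partners *Ift81* and *Ift74*, which bind tubulin together, differed by 0.29 (SE 0.10) and 0.24 (SE 0.09), with adjusted p = 0.0311 and 0.0468.

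*Ift74* and *Ift22* were also among the members with the smallest p for 2-octanone in GFP- cells. *Ift74* signals were 14.61, 14.56, 14.69 and 14.83 in the 4 GFP+ vehicle arrays and 14.45, 14.09, 14.44 and 14.13 in their GFP- partners. After 2-octanone they were 14.39, 14.70, 14.51 and 14.72 in GFP+ and 14.48, 14.52, 14.45 and 14.53 in GFP- cells. The 4 GFP+ vehicle arrays lay above all 4 GFP- vehicle arrays, and the 2-octanone arrays overlapped. For *Ift22* the GFP+ arrays gave 12.61, 12.42, 12.63 and 12.28 after vehicle and 12.29, 12.35, 12.24 and 12.45 after 2-octanone. Their GFP- partners gave 12.24, 12.24, 12.37 and 11.94 and 12.13, 11.88, 12.17 and 11.60. Here the fractions overlapped after vehicle and not after 2-octanone. Of the 3 IFT-A genes with an Ift name only *Ift43* was called, at 0.36 (SE 0.09, adjusted p = 0.00538). *Ift122* and *Ift140* stood at 0.26 and 0.12 (adjusted p = 0.0564 and 0.238). Of the IFT-A genes under other names, *Wdr19* and *Wdr35* were called higher at 0.35 and 0.38, and *Ttc21b* at 0.06 was not called. The smallest differences of the transport genes were those of *Ift20*, which links the Golgi to the cilium, at 0.08 (SE 0.09), *Ift140* at 0.12 (SE 0.07) and *Ift27*, a GTPase, at 0.13 (SE 0.12).

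Of the 8 *Bbs* genes 6 were called higher (median 0.38). They were 4 of the 6 BBSome subunits with a Bbs name and both Bbs-named genes of the chaperonin-like proteins that assemble the complex. Under other names, the BBSome genes *Ttc8* and *Bbip1* and the chaperonin-like *Mkks* were also called higher, at 0.46, 0.31 and 0.41. GFP+ cells of vehicle pools 1 to 4 gave 12.62, 12.66, 12.61 and 12.65 for *Bbs7*, against 12.16, 12.25, 12.21 and 11.89 in GFP- cells. The 2-octanone pools gave 12.30, 12.58, 12.60 and 12.64 against 12.26, 12.17, 12.25 and 11.64. All 8 GFP+ arrays stood above all 8 GFP- arrays for this BBSome subunit, a difference of 0.48 (SE 0.10, adjusted p = 0.00183). *Bbs4*, another subunit, was the only other transport gene whose fractions did not overlap at all. In vehicle pools 1 to 4 *Bbs4* read 14.66, 14.66, 14.66 and 14.60 in GFP+ and 14.38, 14.37, 14.43 and 14.02 in GFP- cells. In the pools given 2-octanone it read 14.64, 14.52, 14.56 and 14.43 in GFP+ and 14.39, 14.31, 14.23 and 14.14 in GFP- cells. The difference was 0.31 (SE 0.08, adjusted p = 0.00855). *Bbs5* signals were 11.62, 11.52, 11.48 and 11.77 in the 4 GFP+ vehicle arrays and 11.13, 11.07, 11.09 and 10.94 in their GFP- partners. After 2-octanone they were 11.56, 11.62, 11.55 and 12.09 in GFP+ and 11.41, 11.70, 11.24 and 11.14 in GFP- cells. GFP+ was higher in 7 of 8 pools, and the difference of this lipid-binding subunit was 0.44 (SE 0.10, adjusted p = 0.00452). *Bbs2* was called at 0.38 (SE 0.12), and *Bbs1* and *Bbs9* were not, at 0.39 (SE 0.14) and 0.21 (SE 0.08), adjusted p = 0.0523 and 0.0517.

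Of the chaperonin-like genes *Bbs12* read near background. For *Bbs12* the GFP+ arrays gave 5.74, 6.22, 5.94 and 6.07 after vehicle and 6.07, 5.72, 5.63 and 5.91 after 2-octanone. Their GFP- partners gave 5.48, 5.55, 5.20 and 5.29 and 5.66, 5.22, 5.50 and 5.73. GFP+ lay above GFP- in all 8 pools, by 0.46 (SE 0.11, adjusted p = 0.00339). The GFP- mean after vehicle was under background, and with GFP- arrays raised to the background mean where they lay under it the difference was at least 0.37. GFP+ cells of vehicle pools 1 to 4 gave 8.57, 7.74, 7.82 and 7.92 for *Bbs10*, against 7.64, 7.51, 7.60 and 7.54 in GFP- cells. The 2-octanone pools gave 7.92, 8.04, 7.73 and 8.15 against 7.23, 7.60, 7.91 and 7.80. Its difference was 0.38 (SE 0.13, adjusted p = 0.0318), with GFP+ above GFP- in 7 of 8 pools and arrays of both fractions overlapping after 2-octanone.

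Both *Dync2* genes, which code for parts of the return motor dynein-2, were called. Of dynein-2 genes under other names, *Wdr34* and *Tctex1d2* were called higher at 0.48 and 0.44, and *Wdr60* at 0.20 was not called. In vehicle pools 1 to 4 *Dync2h1* read 12.33, 12.96, 11.97 and 12.93 in GFP+ and 11.73, 11.41, 11.97 and 12.00 in GFP- cells. In the pools given 2-octanone it read 12.38, 12.90, 12.25 and 12.47 in GFP+ and 12.36, 12.09, 12.06 and 12.05 in GFP- cells. The pools differed widely for this heavy chain, from 0.00 in vehicle pool 3 to 1.55 in vehicle pool 2. The fractions overlapped in both exposures, and the difference, the largest among the transport genes, was 0.56 (SE 0.15, adjusted p = 0.00967). *Dync2li1*, the light intermediate chain, differed by 0.33 (SE 0.09, adjusted p = 0.0119) and was higher in all 8 pools.

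Among the 10 axonemal dynein heavy chain genes 6 were higher and 1 lower (median 0.42). Outer arm chains gave 3 of 5 higher. *Dnah11* signals were 13.21, 13.06, 13.02 and 13.71 in the 4 GFP+ vehicle arrays and 12.77, 12.34, 12.52 and 12.66 in their GFP- partners. After 2-octanone they were 13.13, 13.04, 12.90 and 13.57 in GFP+ and 12.66, 12.91, 12.64 and 13.13 in GFP- cells. Signals of this outer arm chain of respiratory cilia were far above background on every array. The difference was 0.50 (SE 0.13, adjusted p = 0.00702), and the fractions did not overlap after vehicle. For *Dnah9* the GFP+ arrays gave 8.30, 7.96, 7.83 and 8.05 after vehicle and 8.29, 7.74, 8.23 and 8.21 after 2-octanone. Their GFP- partners gave 7.61, 7.84, 7.75 and 7.00 and 7.70, 7.74, 7.66 and 7.44. GFP+ was higher in all 8 pools by 0.48 (SE 0.13, adjusted p = 0.00876), though not called without both pools numbered 4 (0.34, adjusted p = 0.0507). *Dnah5*, the other outer arm chain of respiratory cilia, differed by 0.45 (SE 0.10, adjusted p = 0.00358) at a signal of 6.32 to 6.93 in the group means.

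Inner arm chains gave 3 of 5 higher. GFP+ cells of vehicle pools 1 to 4 gave 11.90, 11.72, 11.96 and 11.78 for *Dnah7a*, against 11.50, 11.28, 11.48 and 11.05 in GFP- cells. The 2-octanone pools gave 12.19, 11.57, 11.86 and 12.44 against 11.59, 11.34, 11.33 and 11.22. This gene has close paralogs, *Dnah7b* and *Dnah7c*, whose transcripts the probes may not tell apart. GFP+ lay above GFP- in all 8 pools, by 0.58 (SE 0.12, adjusted p = 0.00145). In vehicle pools 1 to 4 *Dnah2* read 7.70, 7.62, 7.79 and 7.95 in GFP+ and 6.93, 7.46, 7.55 and 7.51 in GFP- cells. In the pools given 2-octanone it read 7.89, 7.96, 8.15 and 8.02 in GFP+ and 7.13, 7.43, 7.45 and 7.65 in GFP- cells. The difference was 0.50 (SE 0.11, adjusted p = 0.00206), with no overlap within either exposure. *Dnah10* signals were 5.79, 5.43, 5.50 and 5.94 in the 4 GFP+ vehicle arrays and 5.02, 5.13, 4.77 and 5.12 in their GFP- partners. After 2-octanone they were 5.21, 5.02, 5.43 and 6.02 in GFP+ and 5.06, 5.17, 5.22 and 5.67 in GFP- cells. It was called at 0.40 (SE 0.14, adjusted p = 0.0421), but only the GFP+ vehicle mean exceeded background. With GFP- arrays raised to the background mean where they lay under it, and GFP+ arrays as measured, the difference was 0.03. This is not a lower bound, since the GFP+ 2-octanone mean was itself under background.

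*Dnah8* and *Dnah17* are outer arm heavy chains known from sperm flagella. For *Dnah8* the GFP+ arrays gave 5.63, 6.504, 5.92 and 6.22 after vehicle and 5.83, 5.73, 6.08 and 6.14 after 2-octanone. Their GFP- partners gave 6.199, 5.92, 7.21 and 7.45 and 6.39, 6.23, 6.71 and 7.10. *Dnah8* was lower in GFP+ cells in 7 of 8 pools, at −0.64 (SE 0.21, adjusted p = 0.0305), and higher in vehicle pool 2. Its GFP+ group means were near background, at 6.07 after vehicle and 5.95 after 2-octanone. On no array did it read above the highest background probe set. The call was lost in 10 of its 17 alternatives, where the adjusted p reached 0.131 (median centring). GFP+ cells of vehicle pools 1 to 4 gave 4.43, 4.67, 4.80 and 4.46 for *Dnah17*, against 4.15, 4.62, 4.52 and 4.17 in GFP- cells. The 2-octanone pools gave 3.81, 4.49, 4.31 and 4.44 against 4.31, 4.92, 4.75 and 4.37. All of these lie under the background mean and the fractions overlap. *Dnah1* and *Dnah6* read 4.38 to 4.82 and 4.13 to 4.44 in the group means, also under background.

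The intermediate chain genes, which the rule left out, were also higher. In vehicle pools 1 to 4 *Dnaic1* read 8.95, 9.08, 9.19 and 9.64 in GFP+ and 8.72, 8.60, 8.87 and 8.59 in GFP- cells. In the pools given 2-octanone it read 8.85, 9.01, 9.16 and 9.86 in GFP+ and 8.48, 8.53, 8.82 and 9.10 in GFP- cells. *Dnaic2* signals were 11.31, 11.98, 11.69 and 11.72 in the 4 GFP+ vehicle arrays and 11.05, 11.24, 11.22 and 10.69 in their GFP- partners. After 2-octanone they were 11.43, 11.66, 11.34 and 11.63 in GFP+ and 11.04, 11.03, 11.07 and 10.92 in GFP- cells. Both were higher in GFP+ cells in all 8 pools, *Dnaic1* by 0.50 (SE 0.15, adjusted p = 0.0171) and *Dnaic2* by 0.56 (SE 0.11, adjusted p = 0.000738).

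Of the 7 *Dnaaf* genes, which code for dynein arm assembly factors, 1 was called. Assembly factors under other names were counted with the other motile axoneme genes below. Of these, *Zmynd10*, *Lrrc6* and *Cfap298* were called higher at 0.46, 0.47 and 0.44, and *Cfap300* at 0.19 was not called. For *Dnaaf1* the GFP+ arrays gave 10.12, 9.78, 10.27 and 10.09 after vehicle and 10.34, 10.10, 9.98 and 10.02 after 2-octanone. Their GFP- partners gave 9.55, 9.54, 9.56 and 9.51 and 9.56, 9.02, 9.60 and 9.48. No GFP- array of this leucine-rich repeat protein gene reached the lowest GFP+ array, and the difference was 0.61 (SE 0.10, adjusted p = 0.000211). *Dnaaf2*, *Dnaaf4* and *Dnaaf5* were positive in 6, 7 and 7 of 8 pools at 0.22 (SE 0.12), 0.42 (SE 0.19) and 0.34 (SE 0.20) and were not called (adjusted p = 0.191, 0.113 and 0.198). *Dnaaf3*, *Dnaaf6* and *Dnaaf6b* were under background, *Dnaaf6* at 3.38 to 3.66 in the group means. The last pair bear names of copies of one gene, and signals of either could hold both.

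The tektins went both ways. GFP+ cells of vehicle pools 1 to 4 gave 8.57, 8.70, 8.97 and 8.75 for *Tekt4*, against 7.88, 7.96, 8.32 and 7.54 in GFP- cells. The 2-octanone pools gave 8.68, 8.43, 8.65 and 8.42 against 8.28, 7.65, 8.33 and 8.002. GFP+ and GFP- arrays did not overlap, and the difference of 0.65 (SE 0.12, adjusted p = 0.000695) was the largest of the 45 genes. In vehicle pools 1 to 4 *Tekt1* read 11.93, 11.71, 11.70 and 12.17 in GFP+ and 11.32, 11.34, 11.27 and 11.30 in GFP- cells. In the pools given 2-octanone it read 11.63, 11.65, 11.66 and 12.05 in GFP+ and 11.21, 11.35, 11.04 and 11.35 in GFP- cells. Here too all GFP+ arrays were above all GFP- arrays, with 0.54 (SE 0.10, adjusted p = 0.000355). *Tekt3* stood at 0.28 (SE 0.19) and was not called (adjusted p = 0.265), with pools from −0.41 to 1.53. *Tekt2* signals were 5.36, 5.78, 6.04 and 5.62 in the 4 GFP+ vehicle arrays and 6.03, 6.79, 6.19 and 6.85 in their GFP- partners. After 2-octanone they were 5.999, 6.16, 6.24 and 6.38 in GFP+ and 6.38, 6.34, 6.27 and 6.24 in GFP- cells. *Tekt2* was lower in GFP+ cells in 7 of 8 pools, at −0.44 (SE 0.13, adjusted p = 0.0182), near background: the GFP+ vehicle mean was 5.70. With median centring it stood at −0.16 and was not called.

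In all, GFP+ and GFP- arrays did not overlap for *Bbs4*, *Bbs7*, *Dnaaf1*, *Tekt1* and *Tekt4*, 5 of 45 genes (11.1%), each with GFP+ above. Over all probe sets GFP+ stood above without overlap in 3.18% and below in 8.25%. GFP+ was higher in each of the 8 pools for 18 of 45 members (11 of 24 transport and 7 of 21 motile genes) and for 13.5% of all probe sets.

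**Figure D2:**
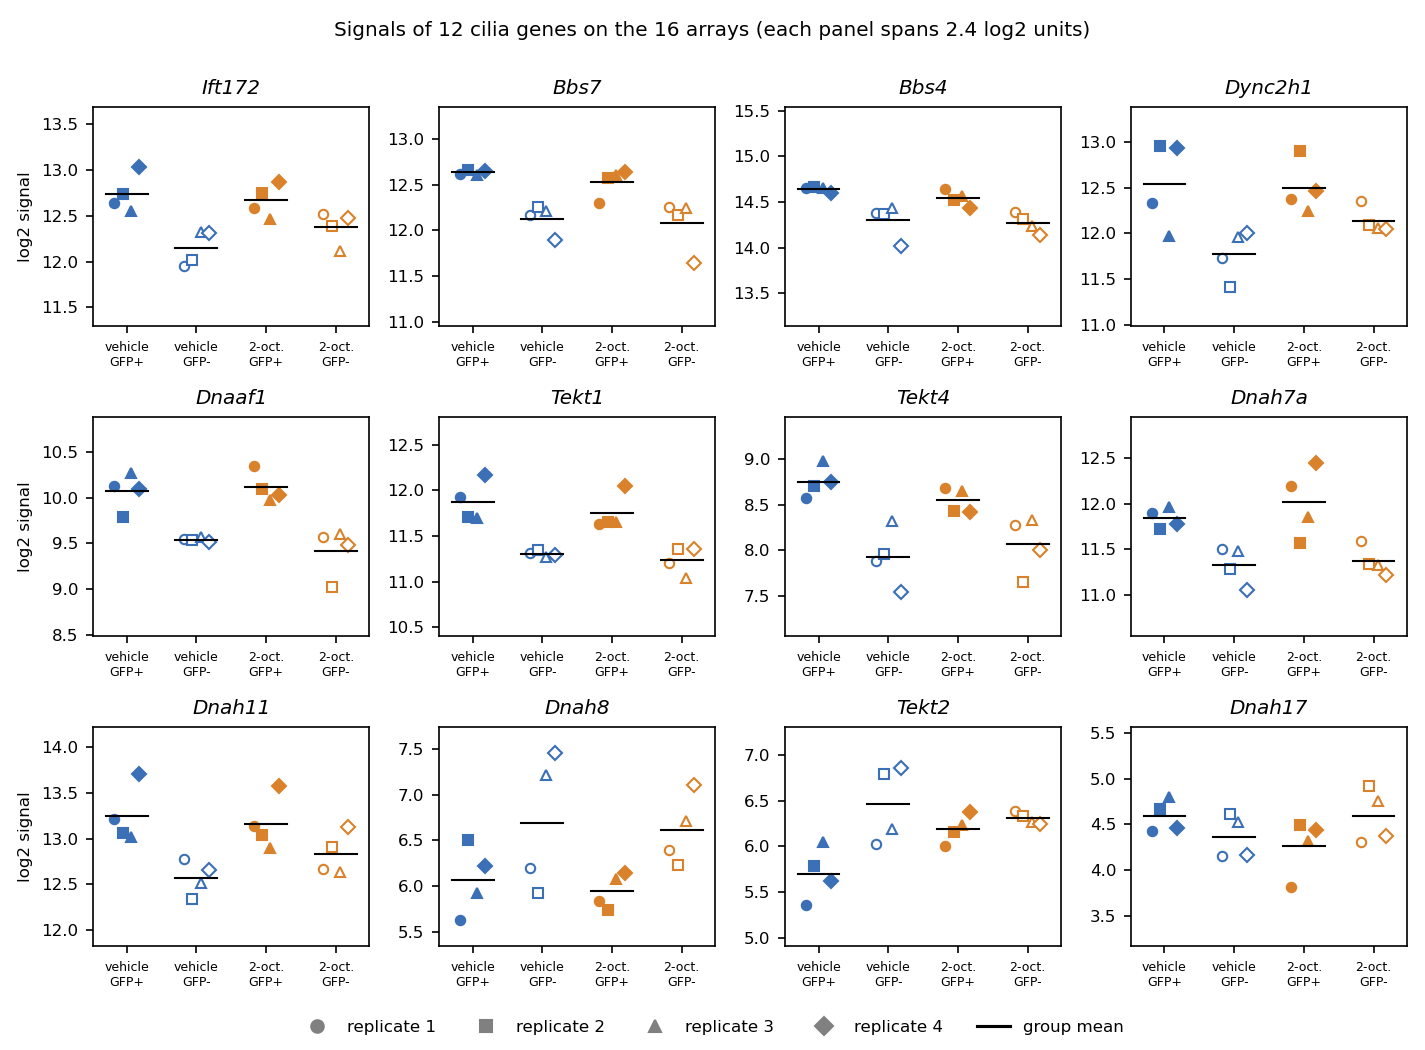
Log2 signal (y axis) of 12 genes in the 4 groups (x axis; 2-oct. is 2-octanone), 1 symbol per array with its shape giving the pool's replicate number and a bar at the group mean; each panel spans the same range. GFP+ arrays stand above all GFP- arrays for *Bbs7*, *Bbs4*, *Dnaaf1*, *Tekt1* and *Tekt4*, while *Dnah8* and *Tekt2* are lower in GFP+ cells and *Dnah17* overlaps.

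Transport and motile genes were set side by side pool by pool. The median difference of the transport genes was 0.27, 0.30, 0.23 and 0.68 in vehicle pools 1 to 4 and 0.08, 0.21, 0.20 and 0.41 in 2-octanone pools 1 to 4. For the motile genes it was 0.27, 0.30, 0.29 and 0.50 and then 0.17, 0.19, 0.22 and 0.41. Every pool gave a positive median in both classes, and in both exposures the pool numbered 4 gave the highest. Medians over all probe sets were 0.07 to 0.16. Over the 8 pools the fitted class medians differed by −0.01 (transport minus motile), less than the SD of that difference between pools, 0.08. With the 6 genes under background left out the motile median was 0.45 over 15 genes, and transport minus motile was −0.12. By pool the median of these 15 was 0.50, 0.37, 0.46 and 0.73 after vehicle. After 2-octanone it was 0.40, 0.19, 0.31 and 0.46. The transport median lay below it in every pool except 2-octanone pool 2.

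**Figure D3:**
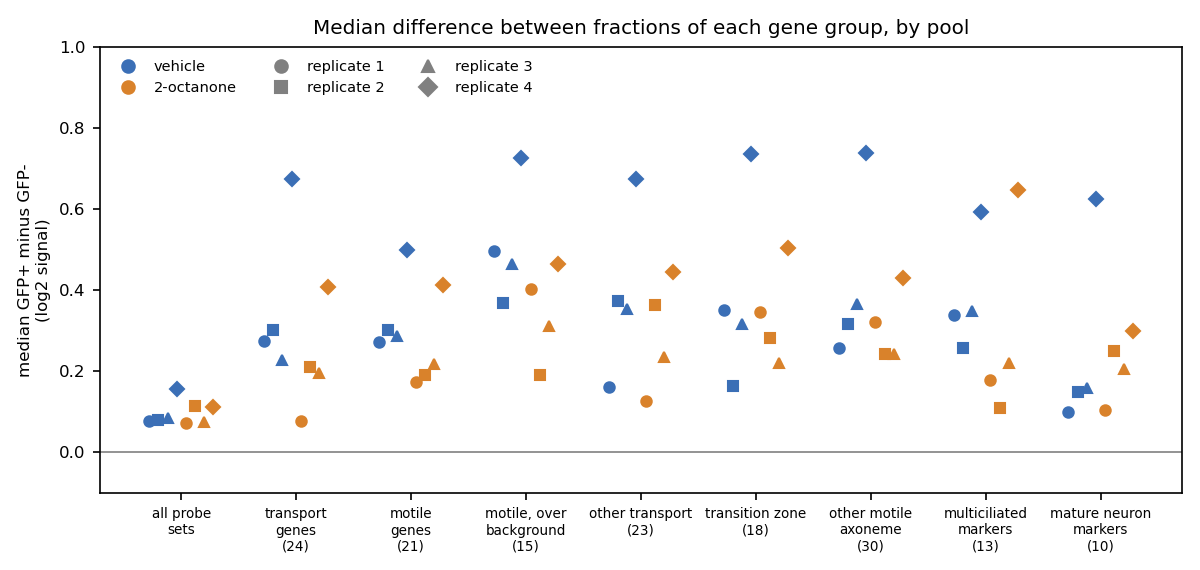
Median GFP+ minus GFP- difference (log2 signal, y axis) of each gene group (x axis, number of genes in brackets), 1 symbol per pool, blue for vehicle and orange for 2-octanone. All medians of the cilia groups are above 0, and within each exposure the diamond of the pool numbered 4 lies highest in every cilia group, at 0.68 (vehicle) and 0.41 (2-octanone) for the transport genes.

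Cilia genes outside the name rule were described from lists. Of 23 other transport genes (kinesin-2 subunits, IFT and BBSome parts under other names, and cargo adaptors) 14 were higher and none lower (median 0.34). *Ttc8*, the gene of the BBSome subunit BBS8, differed by 0.46 (SE 0.09, adjusted p = 0.000738), the chaperonin-like *Mkks* by 0.41 and the IFT-B gene *Ttc26* by 0.46. Of 18 genes of the transition zone, the gate at the base of the cilium, 9 were higher and none lower (median 0.35), led by *Tctn3* at 0.60 (SE 0.10, adjusted p = 0.000133), *Tmem67* at 0.48 and *Nphp4* at 0.61. Of 30 other motile axoneme genes 18 were higher and none lower (median 0.41), among them the radial spoke gene *Rsph1* at 0.57 (SE 0.10, adjusted p = 0.000299), the outer arm docking gene *Ccdc151* at 0.69 and *Cfap53* at 0.55. *Cfap221*, also among the 18, read under background in all 4 groups. So did *Spag16* and *Spag17*, which were not called. In each of these lists the background share is the same 16.7% higher.

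The 13 regulators of multiciliation and of ciliary transcription went both ways, 5 higher and 2 lower (median 0.05). The shares over all probe sets were 16.7% higher and 14% lower. *Myb*, which also marks dividing precursors, was lower, at −4.44 (SE 0.21, adjusted p = 3.44e-10). *Rfx4* was higher at 1.54 (SE 0.24, adjusted p = 9.21e-05) and the deuterosome gene *Deup1* at 0.70 (SE 0.12, adjusted p = 0.00024). Of the other X-box binding factors, *Rfx2* and *Rfx1* were higher at 0.39 and 0.32 (adjusted p = 0.00715 and 0.0376), and *Rfx3* stood at 0.05 (adjusted p = 0.703). *Mcidas* and *Trp73* read under background in all groups, as did *Gmnc*, which was called lower.

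Over both exposures 16.7% of all probe sets were called higher and 14% lower, and 68.4% had a positive difference. Markers of the cell types in the sort moved with the cilia genes as follows. All 13 measured markers of respiratory multiciliated cells were positive and 4 were called higher (median 0.37), led by *Rsph1*, *Ccdc113* at 0.94 (SE 0.18, adjusted p = 0.000708) and the dynein light chain gene *Dynlrb2* at 0.50. This list shares *Rsph1*, *Dynlrb2*, *Spag6l* and *Cfap43* with the other motile genes. Its array mean was 10.16 to 10.42 in GFP+ and 9.78 to 10.04 in GFP- vehicle arrays, and 10.05 to 10.22 and 9.38 to 10.05 after 2-octanone. *Foxj1* and *Lrrc23* had no probe set under these names, and *Cdhr3* read under background in all 4 groups. All 10 markers of mature sensory neurons were positive and 4 were higher (median 0.25), with the chloride channel gene *Ano2* at 0.53 (SE 0.09, adjusted p = 0.000202), the transporter gene *Slc17a6* at 0.42 and the adenylyl cyclase gene *Adcy3* at 0.37. In the other direction, 6 of 8 immature neuron markers, all 4 globose basal, 3 of 7 sustentacular (1 higher) and all 10 neutrophil markers were lower in GFP+ cells, and none of 3 horizontal basal markers was called. The neutrophil list had a median of −7.04, and its array mean was 14.37 to 15.90 in GFP- cells. The part of these cell types in the cilia genes' differences was not tested.

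Within each exposure, 4 pools stand behind each estimate. After vehicle 18 members were called, 16 higher (9 transport, 7 motile) and 2 lower, *Tekt2* at −0.77 and *Dnaaf3*, which was under background. Of all probe sets 18.6% were called, 7.54% higher and 11% lower. Among those higher, *Tekt4* differed most, at 0.82 (SE 0.18, adjusted p = 0.00283), followed by *Dync2h1* at 0.77 (SE 0.21) and *Dnah11* at 0.68 (SE 0.18). With the pool as a replicate block 18 were called (21.9% of probe sets), with *Bbs1* and *Bbs2* in place of *Bbs4* and *Ift80*. Without vehicle pool 4 the count fell to 4, and without vehicle pool 1, 2 or 3 to 9, 10 and 10.

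After 2-octanone 5 members were called, all higher, against 15.1% of probe sets called, with 5.29% higher and 9.8% lower: *Dnaaf1* at 0.69 (SE 0.15, adjusted p = 0.00273), *Dnah7a* at 0.64 (SE 0.17), *Dnah2* at 0.59 (SE 0.15), *Tekt1* at 0.51 (SE 0.14) and *Bbs7* at 0.45 (SE 0.14). Only *Bbs7* of these is a transport gene. With the pool as a replicate block 5 motile genes and no transport gene were called (19.7% of all probe sets), and the count was 2 without 2-octanone pool 3 or pool 4 and 3 without pool 2. *Bbs7*, *Dnaaf1*, *Dnah7a* and *Tekt1* were called in both exposures, 4 of 45 (8.89%) against 12.2% of all probe sets. The sign was the same in both for 43 of 45 members (95.6%) and for 81% of all probe sets. The difference was higher after vehicle for 21 of 24 transport genes, 11 of 21 motile genes and 9554 of 19572 probe sets. For none of them was that change called.

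**Figure D4:**
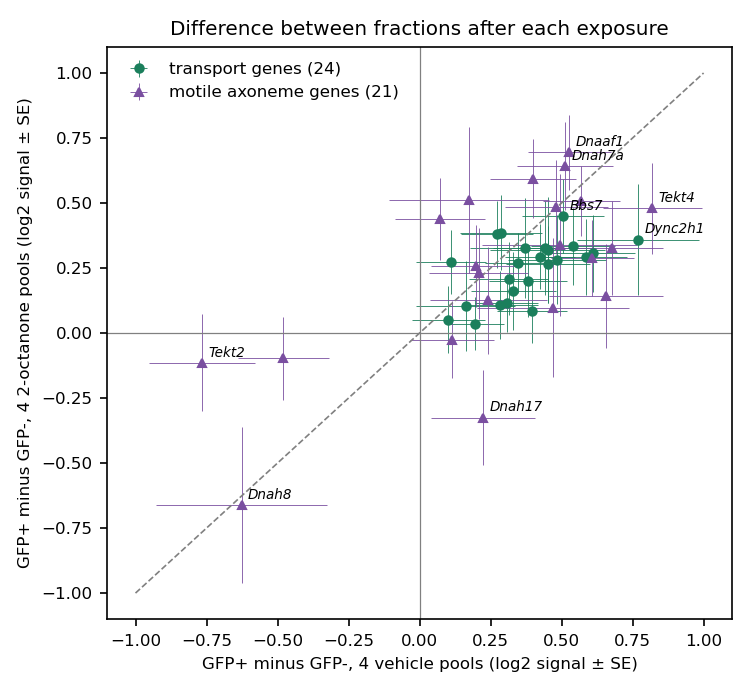
GFP+ minus GFP- difference (log2 signal ± SE) in the 4 vehicle pools (x axis) against that in the 4 pools given 2-octanone (y axis) for the 24 transport genes (circles) and 21 motile axoneme genes (triangles), with the line of equal values dashed. Of the circles 21 of 24 lie below the line; *Tekt2* lies far to the left at −0.77 and at −0.11 on the y axis.

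The comparison of 2-octanone with vehicle asks whether the odorant pulses shifted RNA levels within a fraction. No cilia gene was called by limma in either fraction or for the change of the GFP+/GFP- ratio. Of all probe sets 0% were called in GFP+ cells, 0.00511% in GFP- cells and 0% for the ratio. In GFP+ cells 33 of 45 differences were negative, as for 9525 of 19572 probe sets. The median was −0.06 beside 0.01 over all probe sets. Only 1 member had an unadjusted p under 0.05 (618 of all probe sets did). That gene was *Tekt2*, with GFP+ arrays at 5.36 to 6.04 after vehicle and 5.999 to 6.38 after 2-octanone, which overlap by 1 array on each side. Its difference was 0.49 (SE 0.19, adjusted p = 1).

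Next by p in GFP+ cells came *Dnaaf3* and *Dnaaf6b*, both under background. For *Dnaaf3* the GFP+ arrays gave 4.66, 5.47, 4.97 and 4.89 after vehicle and 5.27, 5.44, 5.18 and 5.34 after 2-octanone. Their GFP- partners gave 5.58, 5.62, 5.54 and 5.18 and 5.30, 5.27, 5.58 and 5.47. GFP+ cells of vehicle pools 1 to 4 gave 4.03, 4.47, 3.88 and 4.25 for *Dnaaf6b*, against 4.02, 4.08, 3.93 and 4.13 in GFP- cells. The 2-octanone pools gave 3.75, 3.79, 4.01 and 3.96 against 3.93, 3.57, 3.91 and 4.19. Neither was called (adjusted p = 1 for both after rounding), and the groups overlap. The neutrophil marker mean also differed among these arrays, at 7.36, 7.39, 9.81 and 12.37 in GFP+ 2-octanone pools 1 to 4 against 7.35, 7.43, 6.91 and 8.25 after vehicle; its part in these values was not tested.

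In GFP- cells 1 member had an unadjusted p under 0.05 (477 of all probe sets did), and the median difference was 0.05 beside −0.0008 over all. Of the 45 members 27 were positive, as were 9743 of 19572 probe sets. The 3 with the smallest p were *Bbs5* at 0.32 (SE 0.15, adjusted p = 1), *Ift74* at 0.22 (SE 0.12, adjusted p = 1) and *Ift22* at −0.25 (SE 0.14, adjusted p = 1). For *Bbs5* and *Ift74* the 4 GFP- arrays after 2-octanone stood above the 4 after vehicle, in the values given with their families, and for *Ift22* they overlapped. *Dync2h1*, named here after its values were seen, had no overlap there either (adjusted p = 1). These were 3 of 45 members (6.67%), against 1.12% of probe sets with 2-octanone above and 0.7% below. In GFP+ cells the exposures overlapped for every member, and 1.79% of probe sets did not overlap. The GFP+/GFP- ratio changed by a median of −0.12 over the 45 members, −0.15 for transport and −0.04 for motile genes, beside 0.01 over all. It was negative for 21 of 24 transport genes, all 8 *Bbs* genes included, and for 9554 of 19572 probe sets. For 2 members, *Tekt2* at 0.65 (SE 0.26, adjusted p = 1) and *Dnah17* (under background), the unadjusted p was under 0.05, as for 465 of all probe sets. Next came *Dnah10*, mostly under background, with adjusted p = 1. SEs of the members' ratio changes ran from 0.15 to 0.43. The comparisons share arrays, so their directions are not independent of each other.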

How the data were processed

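RNA of 16 arrays (4 groups of 4) was analysed. The deposited table holds the authors' normalised signals, read as log2 from their range (2.13 to 18.99); Affymetrix Expression Console is the tool listed in the submitters' processing notes, and neither log base nor normalisation is given in the sources used here. Of 28846 probe sets, 6640 controls and 2634 naming no gene were left out, and 19572 were tested. Symbols came from the platform annotation, updated through RefSeq. limma 3.58.1 (R 4.3.3) was fitted on group means of all 16 arrays, two-sided, with Benjamini-Hochberg adjustment over all probe sets, and was tested on simulated data. The number of arrays limits the precision.

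The members and gene lists were chosen with earlier results of these data known. Values on all arrays are given, in the sort, for the 6 transport and 8 motile genes with the largest called difference and, for each 2-octanone comparison, for the 3 members with the smallest p. From the other lists the 3 genes with the smallest p are named for the cilia, multiciliated and mature neuron lists. *Bbs4*, *Dnaic1* and *Dnaic2* and the other genes named singly were added with their values known.

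The GFP+ and GFP- cells of a pool were sorted from the same 3 mice, which pairs these arrays. Deviations of the fractions correlated at 0.09 to 0.44 over the vehicle pools and −0.0049 to 0.46 over the 2-octanone pools. Alternatives changed the normalisation, filter, moderation, threshold, arrays, blocks, array weights, membership and pools.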

Additional observations from a re-analysis of the deposited data

Results flagged for a closer look

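In 6 of 84 groups of 4 arrays, over the 21 genes with values on all arrays, 1 array lay far from the other 3. Chance alone flags about 1 group in 20, and no cause was tested. *Dync2h1* read 12.36 in GFP- cells of 2-octanone pool 1, with the other 3 at 12.05 to 12.09. *Bbs7* read 11.64 in GFP- cells of 2-octanone pool 4, with the others at 12.17 to 12.26. In GFP+ cells of that pool *Bbs5* read 12.09 (others 11.55 to 11.62) and *Tekt1* 12.05 (others 11.63 to 11.66). *Dnah2* read 6.93 in GFP- cells of vehicle pool 1 (others 7.46 to 7.55), and *Dnah9* 7.74 in GFP+ cells of 2-octanone pool 2 (others 8.21 to 8.29).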

How the results depend on the processing

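No called difference and no class median changed direction under an alternative. Transport minus motile was −0.01, less than its SD between pools, and turned positive without vehicle pool 2 (0.0031) or vehicle pool 3 (0.065). Median centring gave 41 called members over both exposures (24 transport and 17 motile higher, 0 motile lower), 41 after vehicle and 35 after 2-octanone, with class medians of 0.61 and 0.62. Quantile normalisation gave 1 motile gene lower, 9 calls after 2-octanone and transport minus motile of −0.13. Without probe sets under the median signal 5 motile genes were higher and 0 lower, the motile median was 0.54 and transport minus motile −0.22. Leaving out members under background made that difference −0.12. Without both pools numbered 4 there were 15 calls over both exposures (7 transport higher, 0 motile lower), 8 after vehicle and 3 after 2-octanone. After 2-octanone, 10 members were called at adjusted p under 0.1 and 3 with only the arrays compared.

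With the replicate number as a replicate block across exposures, 8 members were called after 2-octanone. Deviations of same-numbered pools correlated at 0.17 to 0.43 in GFP+ and −0.06 to 0.52 in GFP- cells, so the numbers give only a hint of pairing. With the pool as a replicate block the counts were 27 for all pools together, 18 for the vehicle pools and 5 for the 2-octanone pools.

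Leaving out 1 pool at a time gave 17 to 23 calls over both exposures, with 8 to 14 transport genes higher, 8 to 9 motile genes higher and 0 to 2 lower. After vehicle it gave 4 to 17 calls (4 without vehicle pool 4) and after 2-octanone 2 to 7. The transport median was 0.28 to 0.35, the motile median 0.27 to 0.42 and their difference −0.10 to 0.065. Of the 25 called members 14 kept the call in each alternative that gave a value. *Ift74* lost it in 12, *Dnah8* in 10, *Ift81* in 8, *Tekt2* in 7, *Bbs10* in 6, *Dnah10* in 5, *Bbs2*, *Ift22* and *Ift80* in 4 each, and *Dnah9* and *Dync2li1* in 1 each. No member had several probe sets, so choosing the lowest gave no other value.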
